A study of Mus musculus with 6 samples.

Results

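The 10 genes described here are the coactivators Yap1 and Wwtr1, the factors Tead1, Tead2, Tead3 and Tead4, and 4 genes widely used as Yap readouts, namely Ctgf (now Ccn2), Cyr61 (now Ccn1), Amotl2 and Ankrd1. They were picked by symbol from the 24288 genes with a symbol in the expression table, using for each the row with the most reads. The Hippo pathway restrains growth through a kinase cascade whose output is the location of a pair of related coactivators, Yap (gene Yap1) and Taz (gene Wwtr1). When the kinases are quiet, Yap and Taz enter the nucleus, where they have no DNA-binding domain of their own and act through the Tead family of transcription factors. In the mouse blastocyst, Tead4 with nuclear Yap switches on trophectoderm genes in the outer cells, and Taz and Yap can also bind Smad complexes.

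The cells were day 2 epiblast-like cells (EpiLCs), a culture model of the early post-implantation epiblast. All were 129/Sv//Ev mouse cells that left 2i and LIF medium and spent 48 h with 20 ng/ml activin A and 12 ng/ml Fgf2 on fibronectin. The wild-type (WT) group comprised 3 differentiations of the CCE line. The Smad2/3 double-knockout (DKO) group comprised 3 differentiations of clone KT15.1F6, made by deleting exon 1 of Smad3 with a Cas9 nickase in a line homozygous for the Smad2 tm1Rob allele. Both groups received activin. With 1 line per genotype, a difference between lines and an effect of the knockout cannot be told apart, and the p-values measure the spread between differentiations of a line.

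Levels are given as normalized reads, that is reads over a gene body divided by a library's size factor. The libraries held 57644143 to 63046034 reads over 1 row per gene. Of the targeted genes, Smad3 fell from 839 ± 37.0 to 23.6 ± 6.16 (mean ± SD of the 3 libraries of a group, as throughout), whereas Smad2 read over its whole gene body was not reduced, measuring 4520 ± 86.3 in the WT group and 5062 ± 109 in the DKO group. A gene was called changed when its limma p, adjusted by Benjamini-Hochberg over 17038 tested genes, was under 0.05 and its fold change exceeded 1.5. The EpiLC markers were abundant in both groups. Of 7 tested, 1 (Sox2) was called higher and 2 (Fgf5 and Pou3f1) lower in DKO, against 7.35% and 8.04% of all tested genes. The adjusted p alone was passed by all 7, against 53.4% of all tested genes.

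Of the 10 members, 9 had enough reads to be tested. Tead1, Ctgf and Cyr61 were called higher in DKO and none was called lower. This is 33.3% of the tested members, against a background of 15.4% of all tested genes called in either direction, 7.35% higher and 8.04% lower. Another 4 members, Wwtr1, Tead2, Tead4 and Amotl2, passed the adjusted p without reaching a fold of 1.5, against a background of 53.4% of all tested genes that passed the adjusted p alone. Yap1 and Tead3 did not pass it, and Ankrd1 was almost silent. The median log2 fold change was 0.38 over the tested members and 0.00 over all tested genes. Since these are bulk samples, fewer cells with a transcript and less transcript per cell cannot be told apart.

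**Figure D1:**
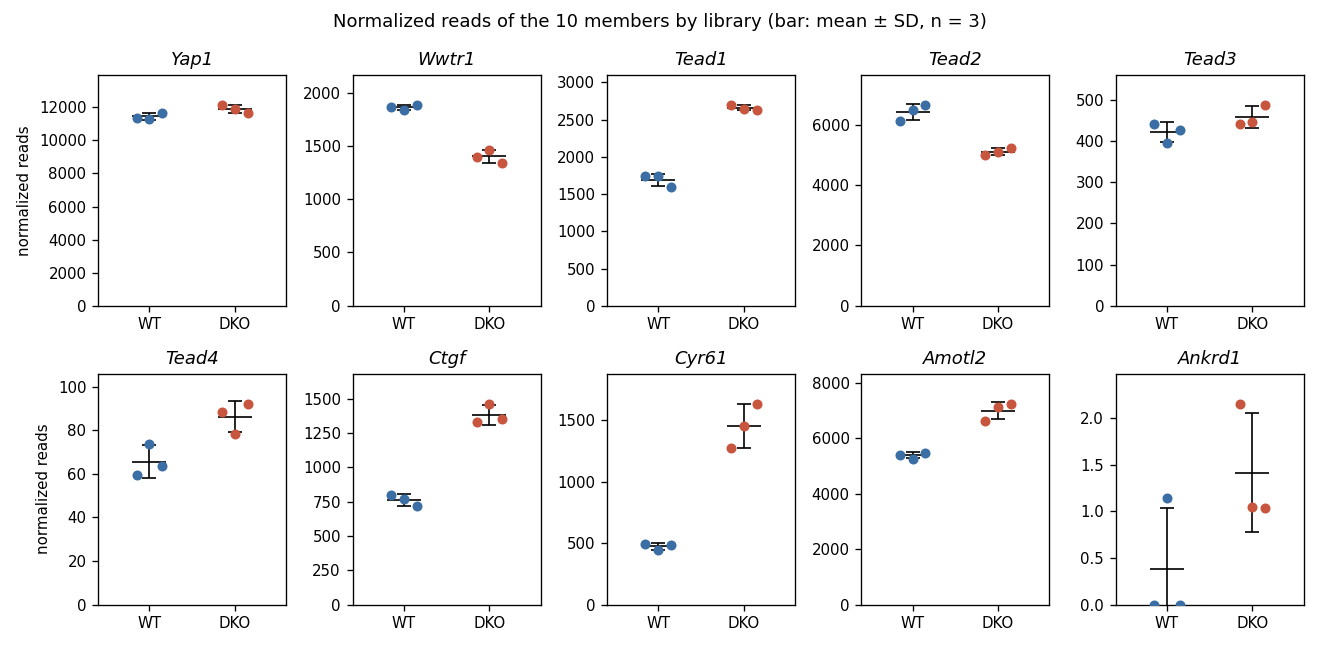
Normalized reads (y axis, from 0) of each of the 10 members in the 3 WT (blue) and 3 DKO (red) libraries, with the mean and SD as black bars, cut at 0 for Ankrd1. Cyr61, Ctgf and Tead1 sit clearly higher in DKO, Wwtr1 and Tead2 lower, Yap1 and Tead3 overlap, and Ankrd1 stays near 0 in both groups.

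Of the coactivators, Yap1 (NM_009534, chromosome 9, 7931999 to 8004638, minus strand, mm10) was the member with the most reads. It gave 11351, 11314 and 11673 normalized reads in the WT libraries and 12144, 11920 and 11660 in the DKO libraries. The lowest DKO value lay below the highest WT value, so the groups overlapped. The log2 fold change was 0.06 ± 0.02 (SE, adjusted p = 0.0513), with a 95% interval of 1.00-fold to 1.08-fold. That p sits at the threshold, and 5 of 14 alternative fits placed it under 0.05.

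Wwtr1, which encodes Taz (NM_001168281, chromosome 3, 57455644 to 57575910, minus strand), went the other way. Its values were 1866, 1840 and 1886 in WT and 1400, 1464 and 1344 in DKO, and all DKO libraries lay below all WT libraries by more than the spread within either group. The DKO mean was 0.752 times the WT mean, a log2 fold change of -0.41 ± 0.04 (adjusted p = 8.50e-10), under the fold threshold. Per kilobase of gene body, Yap1 exceeded Wwtr1 10.2 ± 0.0899 times in WT and 14.1 ± 0.506 times in DKO. The balance between these transcripts thus differed between the groups without overlap, the ratio per kilobase being 10.1 to 10.2 in the WT libraries and 13.5 to 14.4 in the DKO libraries.

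Among the DNA-binding factors, Tead1 was the one called. Tead1 (NM_009346, chromosome 7, 112679356 to 112906784, plus strand) measured 1736, 1744 and 1597 in WT and 2697, 2646 and 2634 in DKO, so that the DKO libraries were tightly grouped above all WT libraries. The DKO mean was 1.57 times that of WT, or 0.65 ± 0.04 on the log2 scale (adjusted p = 3.45e-14). The 95% interval, 1.49-fold to 1.66-fold, reaches just below the threshold of 1.5. The table also holds a shorter Tead1 entry (NM_001166585). Reads within both entries were 1.63 times as many in DKO as in WT, and reads found in the longer entry alone 1.34 times as many, a description with no test.

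Tead2 (NM_001285498, chromosome 7, 45215792 to 45233468, plus strand), which is expressed from the first stages of the embryo, showed the reverse. WT libraries gave 6140, 6501 and 6668 normalized reads and DKO libraries 5009, 5101 and 5229, with no overlap. The log2 fold change of -0.33 ± 0.03 (adjusted p = 5.64e-10) corresponds to 0.794 times the WT mean and was not called. Tead1 and Tead2 therefore differed from WT in opposite directions. Per kilobase of gene body, introns included, Tead2 exceeded Tead1 49.1 ± 4.21 times in WT and 24.7 ± 0.826 times in DKO. In reads not scaled for length, the ratio was 3.81 ± 0.327 in WT and 1.92 ± 0.0642 in DKO, so its size depends largely on the lengths used.

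Tead3 (NM_011566, chromosome 17, 28331671 to 28350805, minus strand) gave 443, 395 and 427 in WT and 441, 447 and 488 in DKO. The groups overlapped, and the difference was not detectable (log2 fold change 0.12 ± 0.06, adjusted p = 0.111, 95% interval 0.994-fold to 1.19-fold). Tead4 (NM_001080979, chromosome 6, 128227143 to 128300813, minus strand), the trophectoderm factor, had the fewest reads of the family. Its values were 59.6, 74.0 and 63.5 in WT and 88.3, 78.3 and 92.3 in DKO, which do not overlap but come close. With 111 to 178 reads per library the estimate was imprecise, at a log2 fold change of 0.39 ± 0.14 (adjusted p = 0.0185, 95% interval 1.08-fold to 1.59-fold). Leaving out WT replicate 1 or DKO replicate 3 put the adjusted p at 0.0749 and 0.0739. Of 8 trophoblast marker genes, all 7 that were tested were called higher in DKO (against 7.35% of all tested genes), and their summed level went from 501 to 542 normalized reads in WT libraries to 1224 to 1444 in DKO. In these reads, which are not scaled for length, most of the WT sum was Eomes, at 305 ± 16.9. The largest parts of the DKO sum were Eomes (469 ± 21.1) and Tfap2c (390 ± 51.3). Such shares depend on the gene body lengths. Of the 7 tested markers, Eomes was not called without WT replicate 1 or DKO replicate 2. Krt7 was not called without WT replicate 2 or DKO replicate 2 or at a pseudocount of 10. Elf5, the other marker, was near 0 and was not tested. The part of trophoblast-like expression in the Tead4 value was not tested.

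**Figure D2:**
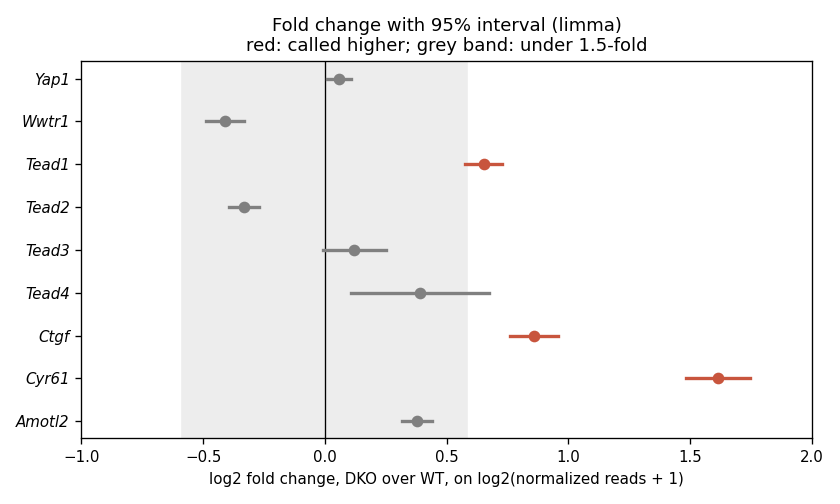
Log2 fold change of DKO over WT (x axis, on log2(normalized reads + 1)) for the 9 tested members, with 95% limma intervals as lines and the region under 1.5-fold in grey. Cyr61, Ctgf and Tead1 (red) lie beyond the grey region, and Wwtr1 and Tead2 are the members below 0.

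Levels of different genes can be set side by side only per length, here per kilobase of gene body, which includes introns and so places long genes such as Tead1 (227 kb) low. On this scale Tead2 was the highest member in WT, at 364 ± 15.3 normalized reads per kilobase, followed by Amotl2 at 329 ± 6.46 and Ctgf at 235 ± 13.2. Yap1 at 158 ± 2.72 and Cyr61 at 157 ± 9.26 came next and did not differ beyond their spread. A wide step separated these from Tead3 at 22.0 ± 1.27, Wwtr1 at 15.5 ± 0.190, Tead1 at 7.44 ± 0.363 and Tead4 at 0.892 ± 0.101.

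In DKO the order at the top was different. Cyr61 stood first at 483 ± 59.2 per kilobase, with Amotl2 at 428 ± 19.7 and Ctgf at 427 ± 22.2, and the libraries of these 3 genes overlapped. Tead2 followed at 289 ± 6.26 and Yap1 at 164 ± 3.34. Lower down, Tead1 at 11.7 ± 0.147 and Wwtr1 at 11.7 ± 0.497 were level, whereas in WT Wwtr1 had been above Tead1. Within the Tead family, Tead2 made up 92.3 ± 0.540% of the summed level per kilobase in WT and 88.7 ± 0.184% in DKO, while Tead1 made up 1.89 ± 0.150% and 3.59 ± 0.123%. The summed Tead level was 394 ± 14.4 per kilobase in WT and 326 ± 7.47 in DKO. These shares and sums depend on the gene body lengths, 227 kb for Tead1 and 17.7 kb for Tead2.

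**Figure D3:**
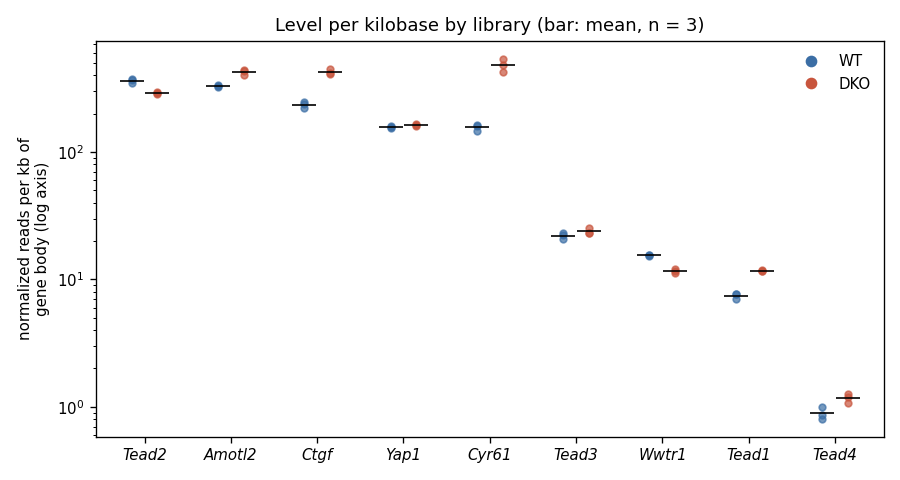
Normalized reads per kilobase of gene body (y axis, log scale) for 9 members, ordered by their WT mean, with each library as a point (WT blue, DKO red) and the mean as a bar. Tead2, Amotl2, Ctgf, Yap1 and Cyr61 form an upper group, and Cyr61 moves from 157 to 483. Ankrd1, at 0 in 2 WT libraries, is left out.

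The readout genes are described with their promoters, because the Tead family recognizes the letters GGAATG and these genes are known to be reached by it there. RefSeq promoter windows of 250 bases before to 50 after a transcription start (GRCm38.p6, the mm10 assembly) were found for 7 members, in 10 windows. The windows of 3 readout genes are printed 5′ to 3′ on the gene's strand, with GGAATG or its reverse complement CATTCC in capitals. They are shown because these are the readout genes for which a window was found. The start used for the Amotl2 window lies inside the Amotl2 interval given below, which is that of the whole RefSeq gene.

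Cyr61, chr3:145649936-145650235, minus strand: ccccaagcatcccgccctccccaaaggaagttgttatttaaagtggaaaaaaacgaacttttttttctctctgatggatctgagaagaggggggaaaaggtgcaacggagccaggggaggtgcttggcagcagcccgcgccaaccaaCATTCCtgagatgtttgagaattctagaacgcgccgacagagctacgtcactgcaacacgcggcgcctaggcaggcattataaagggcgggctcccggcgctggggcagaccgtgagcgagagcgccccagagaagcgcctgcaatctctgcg
Amotl2, chr9:102717554-102717853, plus strand: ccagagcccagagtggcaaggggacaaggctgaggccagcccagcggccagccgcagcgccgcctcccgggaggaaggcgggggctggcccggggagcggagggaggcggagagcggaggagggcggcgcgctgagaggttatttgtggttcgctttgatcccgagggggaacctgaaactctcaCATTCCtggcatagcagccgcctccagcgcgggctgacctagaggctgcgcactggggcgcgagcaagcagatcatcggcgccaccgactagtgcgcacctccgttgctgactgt
Ankrd1, chr19:36119795-36120094, minus strand: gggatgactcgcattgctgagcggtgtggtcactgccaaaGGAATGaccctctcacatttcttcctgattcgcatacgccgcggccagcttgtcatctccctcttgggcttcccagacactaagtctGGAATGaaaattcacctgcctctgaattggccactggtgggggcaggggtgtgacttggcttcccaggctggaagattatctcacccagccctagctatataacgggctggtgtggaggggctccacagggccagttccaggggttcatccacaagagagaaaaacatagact

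The Tead letters begin 103 bases before the Cyr61 start, 65 bases before the Amotl2 start, and 210 and 123 bases before the Ankrd1 start. Over both strands, 8 of the 10 member windows held them (those of Yap1, Wwtr1, Cyr61, Amotl2 and Ankrd1 and some of Tead3, but not Tead2), as did 14.7% of all 32851 RefSeq promoter windows of the same length. The overlapping Wwtr1 windows share a single site. The Smad half-site letters GTCTG or CAGAC, searched alike, were in the windows of Yap1, Cyr61 and Ankrd1 and in 49.6% of all windows. In Ankrd1 a GTCTG shares its last base with the first of a GGAATG. No member window held the AP-1 letters TGANTCA (7.81% of all windows), and of the members Cyr61 alone had TATAAA or its complement (13.6% of all windows), 25 bases before the start. A match of letters does not show binding, and the Tead letters stood before Cyr61, which rose, as well as before Ankrd1, which was near 0.

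Cyr61 (NM_010516, chromosome 3, 145646971 to 145649985, minus strand) encodes a secreted matricellular protein and is an immediate early gene. It rose most of the members. WT libraries gave 490, 440 and 487 normalized reads and DKO libraries 1278, 1454 and 1634, so the lowest DKO library lay far above the highest WT library. The DKO mean was 3.08 times the WT mean, which is 1.61 ± 0.06 on the log2 scale (adjusted p = 1.76e-17), larger in size than 97.7% of tested genes. The DKO libraries were also more spread out than WT, with a coefficient of variation of 12.3% against 5.91%.

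Ctgf (NM_010217, chromosome 10, 24595442 to 24598683, plus strand), a paralogue of Cyr61 and a target of both Yap and TGF-β signals in many cell types, rose as well. Its values were 800, 771 and 716 in WT and 1330, 1465 and 1354 in DKO, again with no overlap. This is 1.81 times the WT mean (log2 fold change 0.86 ± 0.05, adjusted p = 3.56e-14). Per kilobase, Ctgf exceeded Cyr61 1.50 ± 0.130 times in WT and stood at 0.892 ± 0.106 times Cyr61 in DKO. Ctgf and Cyr61 are also strongly expressed in fibroblasts, so fibroblast markers were examined beside them. Of 9 such markers 5 were tested, and 2 were called lower in DKO and 0 higher, against 8.04% and 7.35% of all tested genes. The 2 called were Dcn (log2 fold change -2.14 ± 0.05) and Col1a2 (-1.07 ± 0.11). The other tested markers, Col1a1 (-0.53 ± 0.29), Col3a1 (0.36 ± 0.26) and Thy1 (0.11 ± 0.16), were not called and differed in sign, and Postn and Prrx1 had at most 3 reads in every library. The summed level of the list, not scaled for length, was 1576 to 1663 normalized reads in WT libraries and 479 to 523 in DKO libraries. Most of it was Dcn, at 1330 ± 51.3 and 300.4 ± 16.9. The part of fibroblast-like expression in the Ctgf and Cyr61 values was not tested.

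Amotl2 (NM_019764, chromosome 9, 102717091 to 102733418, plus strand) encodes an angiomotin that holds Yap in the cytoplasm and is itself switched on by Yap. It was abundant, with 5390, 5260 and 5469 normalized reads in WT and 6626, 7109 and 7236 in DKO. The groups were well apart, yet the difference was modest at 1.30 times the WT mean (log2 fold change 0.38 ± 0.03, adjusted p = 5.08e-11) and was not called. Ankrd1 (NM_013468, chromosome 19, 36111965 to 36119844, minus strand), a muscle ankyrin-repeat protein and Yap target, had 0, 2 and 0 reads in the WT libraries and 4, 2 and 2 in the DKO libraries. At this depth no difference was detectable, and no fold is given since 5 of 6 libraries had 3 reads or fewer. Of the 4 readout genes 3 were thus tested, and 2 of these were called higher, against a background of 7.35% of all tested genes. Whether the 3 tested readout genes differed from each other in fold change was not tested.

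Because Cyr61 is an immediate early gene, a list of other immediate early genes was examined too. Many of them encode short-lived transcription factors such as Fos. In DKO 7 of 11 were called higher and 1 lower, against 7.35% and 8.04% of all tested genes, and their median was 0.81 on the log2 scale. Fos rose from 504 ± 103 to 1923 ± 405 normalized reads (1.93 ± 0.11 on the log2 scale, adjusted p = 3.26e-14) and Fosb from 1302 ± 209 to 3575 ± 705 (1.45 ± 0.09, adjusted p = 5.13e-13). Atf3, a stress-response factor, fell from 233 ± 14.9 to 52.3 ± 8.39 (-2.14 ± 0.12, adjusted p = 4.24e-14). In DKO replicates 1, 2 and 3 Fos was at 3.08, 3.68 and 4.67 times its WT mean, Cyr61 at 2.70, 3.08 and 3.46 times and Ctgf at 1.75, 1.92 and 1.78 times. Ctgf was highest in replicate 2 and Fos and Cyr61 in replicate 3, an order over 3 libraries that was not tested. The part of the immediate early genes' induction in the Cyr61 and Ctgf values was not tested either. Srf, the serum response factor, was not called. It stayed at 0.902, 0.956 and 1.02 times its WT mean in DKO replicates 1, 2 and 3, the same order of libraries as for Fos and Cyr61. The list of 11 actin and Srf target genes holds Srf itself and cytoskeletal genes. Of these 11, 0 were called by limma, edgeR or DESeq2, with a median log2 fold change of 0.10. The immediate early genes were listed apart, so this count does not cover them. The adjusted p alone was passed by 6 of the 11, a share near the background of 53.4%, and the same number had an unadjusted p under 0.05.

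**Figure D4:**
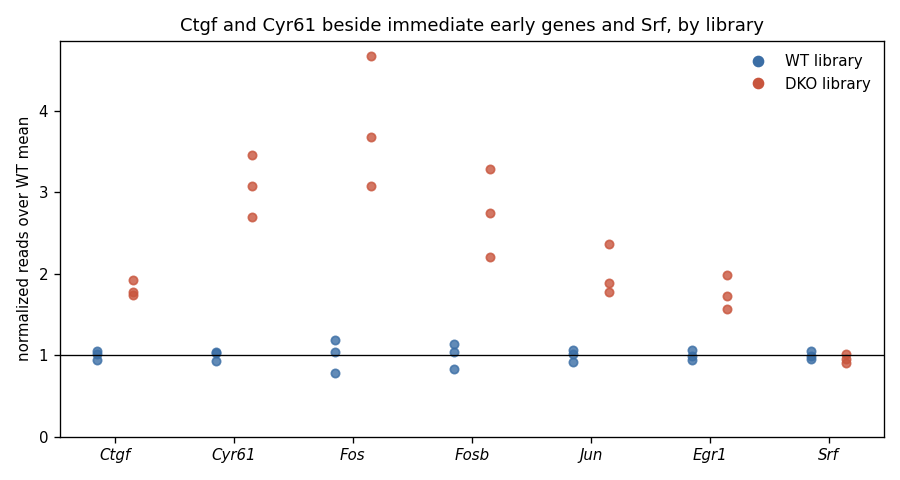
Normalized reads divided by the WT mean of each gene (y axis, from 0) in every WT (blue) and DKO (red) library for Ctgf and Cyr61, 4 immediate early genes and Srf. The DKO libraries of Fos spread from 3.08 to 4.67, those of Cyr61 from 2.70 to 3.46, and those of Srf stay near 1. Jun, Egr1 and Srf were picked for this plot with their values known.

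The rest of the pathway was examined through 23 upstream genes. Among these kinases and regulators 2 were called higher and 3 lower, which is 21.7% of the list against the background of 15.4%, and the list median was -0.06 on the log2 scale. Of 7 kinases and adaptors (Stk3, Stk4, Sav1, Lats1, Lats2, Mob1a and Mob1b) only Lats2 was called, rising from 526 ± 21.3 to 861 ± 30.1 normalized reads (0.71 ± 0.05 on the log2 scale, adjusted p = 6.40e-12), and the lowest log2 fold change in this group was -0.11. Lats2 encodes a kinase that phosphorylates Yap and is known as a Yap target too. The upstream scaffolds Nf2, Wwc1, Wwc2 and Frmd6 were not called (-0.32 to 0.16), nor were the Lim proteins Ajuba, Limd1 and Wtip (-0.11 to 0.14).

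Further calls lay outside the core kinases. Ptpn14, a phosphatase that binds Yap and is likewise a known Yap target, rose from 1396 ± 19.8 to 3495 ± 27.3 normalized reads (1.32 ± 0.03 on the log2 scale, adjusted p = 7.09e-22). Both atypical cadherins on the list fell, from low read numbers. Fat4 went from 71.7 ± 14.2 to 24.3 ± 3.08 (-1.51 ± 0.19, adjusted p = 1.22e-07) and Dchs1 from 90.2 ± 15.9 to 54.6 ± 5.97 (-0.71 ± 0.15, adjusted p = 0.000265). Without WT replicate 1, Dchs1 was at -0.57 and no longer called. Taok3, a kinase acting above the core, fell from 675 ± 45.1 to 413 ± 4.05 (-0.71 ± 0.06, adjusted p = 7.25e-11). The angiomotins related to Amotl2 were not called and differed in sign, Amotl1 measuring 0.54 ± 0.04 and Amot -0.39 ± 0.07 on the log2 scale. Both were picked for mention with their values already known.

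Vestigial-like proteins compete with Yap for Tead factors. Of 4 such genes 3 were tested, and Vgll3 was called higher (against 7.35% of all tested genes), from 77.7 ± 3.03 to 143 ± 16.8 normalized reads (0.87 ± 0.12 on the log2 scale, adjusted p = 6.65e-07). Other Yap target genes, taken from targets described in tumour cells, were mostly not called. Of 16 genes 14 were tested, 1 was called higher and 1 lower (14.3%, against the background of 15.4%), and the median log2 fold change was -0.20. The adjusted p alone was passed by 12 of the 14, in both directions, against 53.4% of all tested genes. Nt5e, an ectonucleotidase, fell from 397 ± 12.4 to 224 ± 19.8 (-0.83 ± 0.07, adjusted p = 5.61e-10), and Tgfb2, a TGF-β ligand, rose from 16.2 ± 1.47 to 27.4 ± 5.59 (0.71 ± 0.24, adjusted p = 0.0146), a call lost at a pseudocount of 10 and without DKO replicate 3 (adjusted p = 0.0977). Igfbp3, a growth factor binding protein picked after its value was known, lay just under the fold threshold at 0.57 ± 0.05 and was called without WT replicate 2 or without DKO replicate 3.

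**Figure D5:**
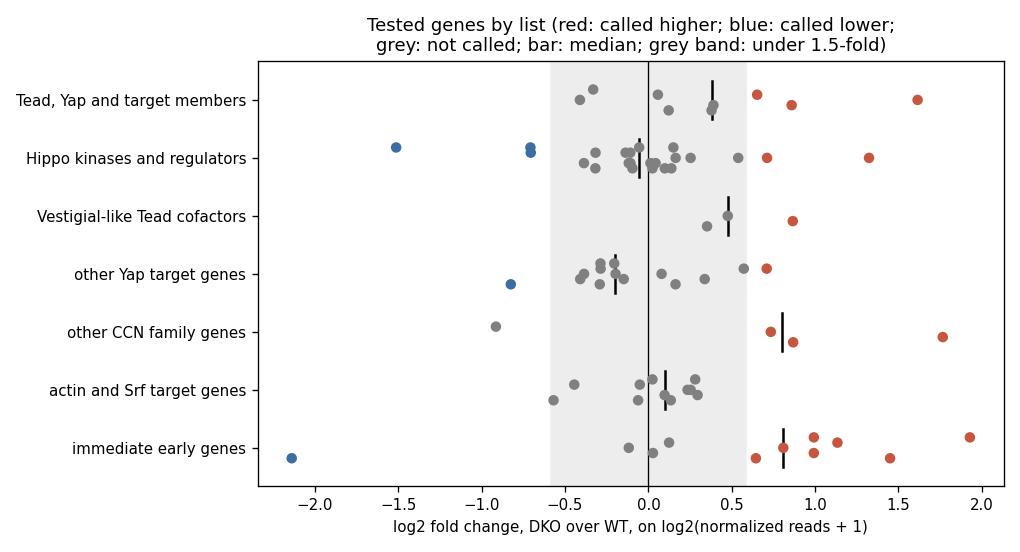
Log2 fold change of DKO over WT (x axis) for every tested gene of the members and of 6 other lists, with calls in red (higher) and blue (lower), other genes in grey, list medians as bars, and the region under 1.5-fold shaded. Immediate early and other CCN genes lie mostly to the right, while the other Yap target genes centre at -0.20.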

How the data were processed

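Total RNA from 3 WT and 3 DKO differentiations was depleted of ribosomal RNA and sequenced from stranded paired-end libraries. The authors screened out rRNA reads (bowtie2), aligned the rest to mm10 (STAR), dropped duplicates (Samtools) and counted over refGene gene bodies. Versions and the use of strand are not given in the sources used here. Gene bodies were read as including introns, and 5 of the 10 members (Yap1, Wwtr1, Tead1, Tead4 and Ctgf) overlap another GENCODE gene.

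The deposited signal per library equals read counts divided by 1 size factor (1.76 to 1.93), as read from the values. Dividing by the step of 1 read gave whole numbers, within 0.1, for 100% of values. A second deposited table holds the authors' own DESeq2 comparison and was not used. Rows without a symbol (138, 0.517% of reads) were left out. Pairs of libraries of a genotype varied 3.30 to 5.35 times more than sampling alone gives, so none was counted as a duplicate.

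Because the values are not raw counts, the test was limma 3.58.1 (R 4.3.3) with a variance trend on log2(value + 1), which understates changes of low genes, over genes kept by filterByExpr of edgeR 4.0.16 on recovered reads. Alternatives were edgeR, DESeq2 1.42.0, TMM factors, other pseudocounts, no filter, all rows, a replicate block and leaving out each library. The fits were tested on simulated data. Positions and lengths are those of the RefSeq GRCm38.p6 gene that holds the counted transcript, found by its identifier. They cover the whole gene and may differ from the interval counted. Strands are from GENCODE M21. The members and gene lists were chosen with earlier results of these data known. All members are named. Of other lists, the 3 called genes with the largest changes and a mean of at least 10 in either group are named (up to 6 of the kinases and regulators), and any others were picked with their values known. Intervals and spreads cover the replicates and counting only.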

Additional observations from a re-analysis of the deposited data

How the results depend on the processing

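Each of the 9 tested members kept its direction in all 14 alternatives, and Tead1, Ctgf and Cyr61 were the members called in each. The adjusted p of Yap1 was under 0.05 in 5 of 14 alternatives (range 0.0233 to 0.208). That of Tead4 was over 0.05 in 2 of 14, without WT replicate 1 and without DKO replicate 3 (range 0.0113 to 0.0749). Cyr61 ranged from 1.53 to 1.71 on the log2 scale, Ctgf from 0.81 to 0.90, Tead1 from 0.61 to 0.67, Amotl2 from 0.35 to 0.42, Tead2 from -0.37 to -0.31 and Wwtr1 from -0.44 to -0.38. Without a fold threshold 7 members passed in place of 3 and 9098 genes in place of 2623, which follows from the rule. Leaving out 1 library gave 2529 to 2610 called genes. At a pseudocount of 10, 1 in place of 2 of the other Yap target genes was called (Tgfb2 was lost), and without DKO replicate 2, 1 in place of 0 actin and Srf target genes (Acta2, picked with its value known, at -0.80). Deviations from the group means were unrelated between libraries of the same number (r = -0.00787, -0.0252 and 0.00475 over 13071 genes). They were not treated as pairs, and a fit with a replicate block called 2602 genes and the same number of members. In the lists, the block changed the call of Wisp3 alone. With no filter Ankrd1 had an adjusted p of 0.126. Depth limits Ankrd1 and Tead4.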

Other observations

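Cyr61 and Ctgf belong to the CCN family of secreted matricellular proteins, and the other 4 members of that family were far less abundant in these cells. Of these, 3 were called higher in DKO and none lower (against 7.35% and 8.04% of all tested genes), with a median log2 fold change of 0.80 over the 4 tested. Wisp1, known as a Wnt-induced gene, rose from 36.2 ± 6.63 to 124 ± 4.11 normalized reads (log2 fold change 1.77 ± 0.15, limma, adjusted p = 1.50e-10). Nov rose from 72.0 ± 12.2 to 131 ± 10.3 (0.87 ± 0.13, adjusted p = 2.75e-06), and Wisp2 from 18.6 ± 3.77 to 31.3 ± 1.54 (0.73 ± 0.23, adjusted p = 0.00803), a call lost without WT replicate 3 (adjusted p = 0.0509) and at a pseudocount of 10. Wisp3 measured 16.7 ± 7.24 in WT and 9.08 ± 5.10 in DKO, and its groups overlapped. It was not called (adjusted p = 0.0508), but was called lower in 5 alternatives, among them the replicate block (adjusted p = 0.0272) and the fits without WT replicate 1, DKO replicate 2 or DKO replicate 3. Of 8 extra-embryonic endoderm markers 7 were tested, and 2 were called higher and none lower (against 7.35% and 8.04% of all tested genes). The 2 called were Gata6 (log2 fold change 1.18 ± 0.25, adjusted p = 0.000237) and Pdgfra (1.16 ± 0.15, adjusted p = 4.10e-07). The other tested markers differed in sign. Gata4 was at 0.55 ± 0.26, whereas Dab2 (-0.37 ± 0.10), Sox17 (-0.58 ± 0.30), Afp (-0.38 ± 0.37) and Foxa2 (-0.29 ± 0.34) were below 0. The median of the list was -0.29. Among the trophoblast markers Gata3 (4.82 ± 0.25), Tfap2c (2.50 ± 0.10) and Hand1 (1.69 ± 0.40) had the largest log2 fold changes. Gata3 and Hand1 had few reads in WT, at 3.25 ± 1.35 and 4.32 ± 2.76 normalized reads.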
